A study of Homo sapiens with 4 samples.

Results

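The genes described here are 35 members of cholesterol and fatty acid synthesis and its control: 18 enzymes of the sterol pathway, 6 enzymes of fatty acid synthesis, 5 genes of the SREBP control circuit, 5 genes of cholesterol movement and uptake, and LPIN1 of glycerolipid synthesis. They were given as a list of names that was chosen with earlier results of these data known. Each was measured by adding up its annotated transcripts and scaling the sum by the library total (CPM, counts at a common library size). All 35 reached at least 1 CPM in 1 library, among 15989 annotated genes that did so. The cells were AC16, an established human line derived from a fusion of ventricular cardiomyocytes with a fibroblast line and labelled as cardiomyocytes. They were exposed to doxorubicin, an anthracycline that intercalates into DNA, at 10 nM for 10, 30 or 360 min, and 1 library labelled untreated stands for 0 min. There was 1 poly(A) RNA library at each time, with 55156612 to 56875881 deposited counts. No difference below therefore has a replicate check, no p-value was computed, and each range in parentheses is a 95% counting interval for the 2 libraries compared, covering counting error only. For the treated cells the medium with serum was taken off and replaced by serum-free medium that carried the drug. Whether the 0 min cells went through this step is not in the labels, so drug, fresh medium and loss of serum cannot be told apart.

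Cells make cholesterol from acetyl-CoA through the mevalonate pathway, and make fatty acids from the same precursor through malonyl-CoA. Both branches are switched on by the SREBP transcription factors, which are made as membrane proteins of the endoplasmic reticulum. SREBF2 encodes SREBP-2, which acts mainly on sterol genes, and SREBF1 encodes the SREBP-1 forms, which act more on fatty acid genes. When membrane sterol is low, the escort protein SCAP carries SREBP to the Golgi, where proteases release its active part. When sterol is high, INSIG1 and INSIG2 hold SCAP back in the endoplasmic reticulum. SREBF2 and INSIG1 are themselves SREBP targets. Heart muscle takes up fatty acids from the blood and burns them for most of its energy.

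A member was called at a time when its CPM differed at least 2-fold from 0 min, provided that the larger value was 5 CPM or more and the interval lay wholly to one side of 1. All 3 comparisons share the 0 min library. The 10 min library stood apart from the other 3 over all genes: 7.69% of 11892 genes with at least 5 CPM were called higher and 6.85% lower there, against 3.25% to 3.55% in each direction at 30 and 360 min. None of the 35 members was called at 10 min in either direction. At 30 min 0 of 34 members with enough counts were called higher, where 3.55% of genes were, and 1, MYLIP, was called lower, where 3.25% were. At 360 min 0 were called higher, where 3.26% of genes were, and 0 lower, where 3.34% were. Cardiomyocyte markers were scarce: 3 of 10 (MYL2, MYL7 and RYR2) reached 1 CPM, TNNT2, MYH6 and MYH7 did not, ACTC1 and PLN were at 0 in every library, and the 10 summed to 39.3 to 50.3 CPM. Of 4 endothelial markers 1, VWF, reached 1 CPM, and the 4 summed to 11.1 CPM at 10 min and 4.36 to 5.84 CPM in the other libraries. Of 6 adipocyte and liver cell markers none reached 1 CPM in any library. Of 8 fibroblast markers 4 did (COL1A1, COL1A2, FN1 and VIM).

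**Figure D1:**
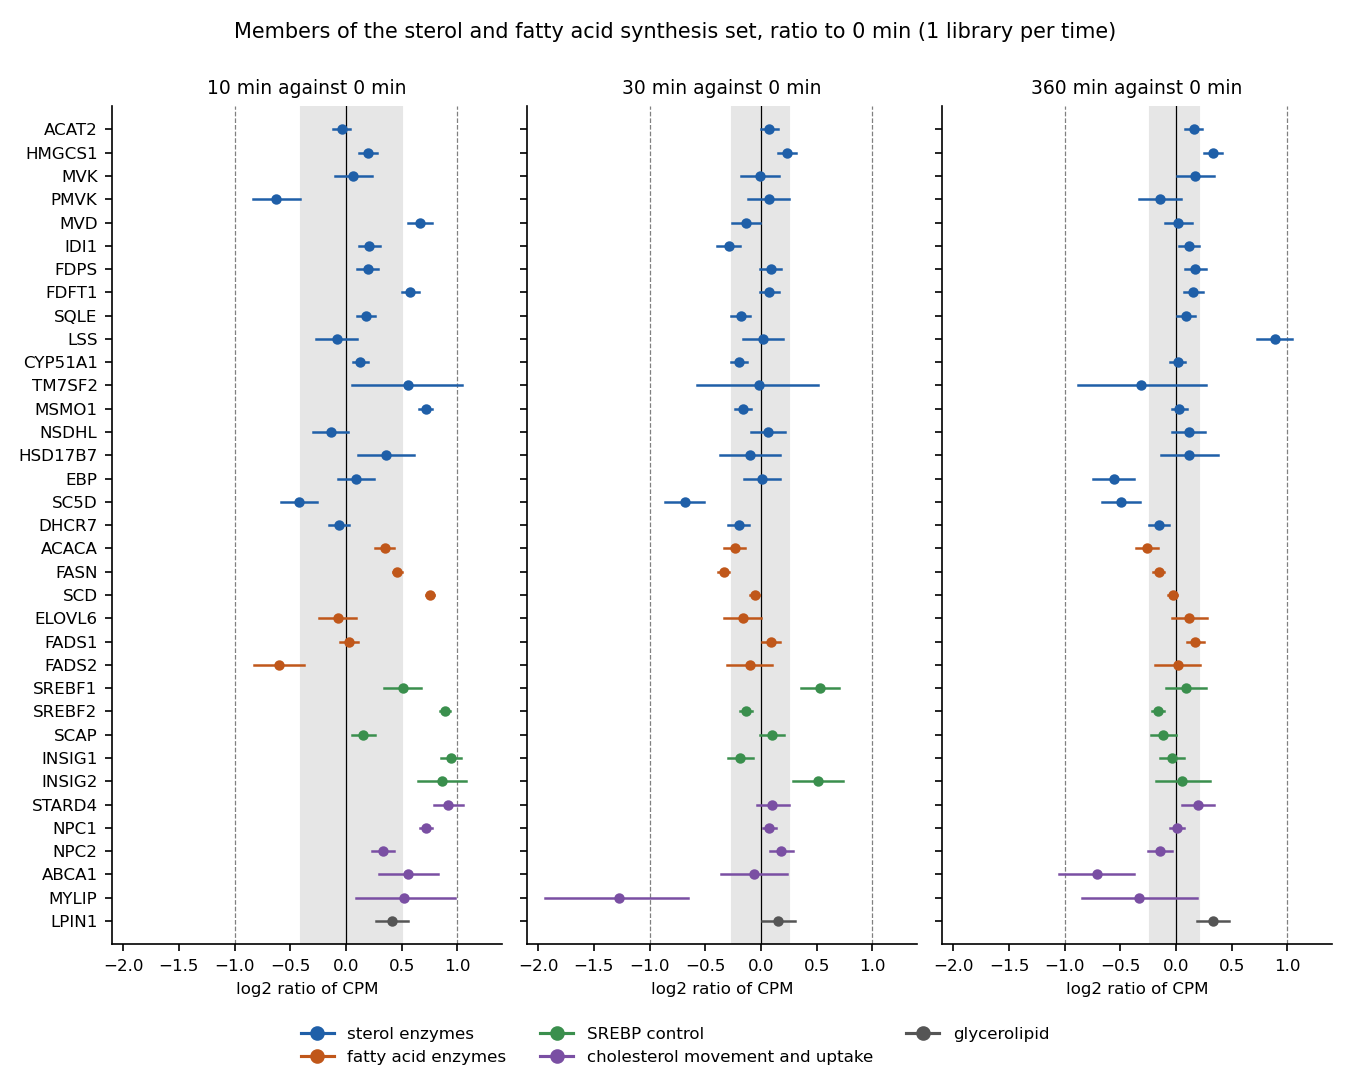
Log2 ratio of CPM to the 0 min library (x axis) for each of the 35 members (rows, coloured by role) at 10, 30 and 360 min, with bars for the 95% counting interval, dashed lines at 2-fold and a grey band for the middle 50% of all 15989 measured genes. At 10 min most members lie right of 0 and none passes the 2-fold line, and MYLIP at 30 min is the one member called.

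The differences at 10 min were smaller than 2-fold and mostly upward. Because the list was chosen with earlier results of these data known, the shares below are description only. Of the 35 members, 24 had an interval above 1 (68.6%), against 34.2% of all genes with at least 5 CPM, and 3 had an interval below 1 (8.57%), against 39.0%. The median log2 ratio was 0.34 over the members and 0.02 over all measured genes. At 23 of 35 members the 10 min library held the highest of the 4 values (65.7%, against 34.1% of genes with at least 5 CPM). With a 1.5-fold limit in place of 2-fold, 8 members were higher (22.9%, against 16.5% of genes) and 2 were lower (5.71%, against 17.0%). The 8 were SREBF2, INSIG1, INSIG2, STARD4, NPC1, SCD, MSMO1 and MVD. The 2 lower members were PMVK and FADS2. Beside this, the median log2 ratio of the 4 measured fibroblast markers was 0.62 at 10 min, from 0.11 for COL1A1 to 0.69 for VIM. The 8 fibroblast markers together summed to 13589 CPM there, against 8783 to 10396 CPM in the other libraries. Of the markers of that list below 1 CPM, COL3A1 and THY1 did not share this direction. From 0 to 10 min COL3A1 went from 0.949 to 0.180 CPM and THY1 from 0.914 to 0.0719 CPM. DCN was at 0 in every library and so has no direction. POSTN had 0.0879 CPM at 0 min and 0 at 10, 30 and 360 min, too few counts to give a direction. The part of this library's other differences in the members' values was not tested. In bulk RNA, fewer cells of a type and less RNA per cell cannot be told apart.

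At the later times the members were spread about 0 min. At 30 min 8 had an interval above 1 (22.9%, against 25.7% of genes) and 13 below 1 (37.1%, against 26.2%), and the 30 min library held the lowest of the 4 values for 14 of 35 members (40%, against 19.8% of genes). At 1.5-fold none was higher, where 8.26% of genes were, and SC5D and MYLIP were lower (5.71%, against 7.66%). At 360 min 11 had an interval above 1 (31.4%, against 24.0% of genes) and 9 below 1 (25.7%, against 22.6%). At 1.5-fold LSS was higher there in annotated transcripts but not for its whole locus (2.86%, against 6.72%) and ABCA1 was lower (2.86%, against 6.99%). The median log2 ratio of the members was -0.02 at 30 min and 0.02 at 360 min.

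The SREBP control genes stood highest among the 5 role groups at 10 min, with a median ratio of 1.81 and all 5 intervals above 1. Of all genes with at least 5 CPM, 34.2% had such an interval in that library. SREBF2 (ENSG00000198911, chromosome 22, 41833079 to 41907308, GRCh38 with GENCODE 29 annotation) had 424, 785, 387 and 379.6 CPM at 0, 10, 30 and 360 min. The 10 min library stood alone, and the other 3 lay close together. Its ratio to 0 min was 1.85 (1.79 to 1.91) at 10 min, 0.913 (0.880 to 0.948) at 30 min and 0.896 (0.863 to 0.930) at 360 min. INSIG1 (ENSG00000186480, chromosome 7, 155297776 to 155310235), the retention protein whose gene is a direct SREBP target, had 102, 196, 89.8 and 99.5 CPM at 0, 10, 30 and 360 min. Only the 10 min value was set apart from the rest, at a ratio of 1.92 (1.80 to 2.05).

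INSIG2 (ENSG00000125629, chromosome 2, 118088452 to 118110997), a close relative of INSIG1 that is less tied to SREBP activity, had 19.9, 36.1, 28.4 and 20.7 CPM at 0, 10, 30 and 360 min. Its values were high at 10 min, lower at 30 min and back near 0 min at 360 min, with ratios of 1.81 (1.57 to 2.11), 1.43 (1.22 to 1.67) and 1.04 (0.881 to 1.23). SREBF1 (ENSG00000072310, chromosome 17, 17810399 to 17837002) had 34.7, 49.4, 50.04 and 36.9 CPM at 0, 10, 30 and 360 min, so that the 10 and 30 min libraries were alike and above the other pair. Its ratios were 1.42 (1.27 to 1.60) at 10 min and 1.44 (1.28 to 1.62) at 30 min. SCAP, the escort protein, varied least of the 5 at 10 min, with 97.3, 108, 104 and 89.9 CPM at 0, 10, 30 and 360 min and a 10 min ratio of 1.12 (1.04 to 1.20). This holds for the gene's sum. Its most counted transcript in every library, SCAP-202, is annotated as subject to nonsense-mediated decay. The coding SCAP-201 had 21.1 CPM at 0 min and 29.7 CPM at 10 min. SREBF1 is among 9 of the 35 members whose most counted transcript differed between libraries. SREBF1-202 had 15.6 CPM at 0 min and was listed at 0 at 10 and 30 min, whereas SREBF1-201 had 7.95 CPM at 0 min and 29.2, 31.2 and 27.3 CPM at 10, 30 and 360 min. How counts are shared among such similar transcripts is an estimate, and this shift was not tested.

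**Figure D2:**
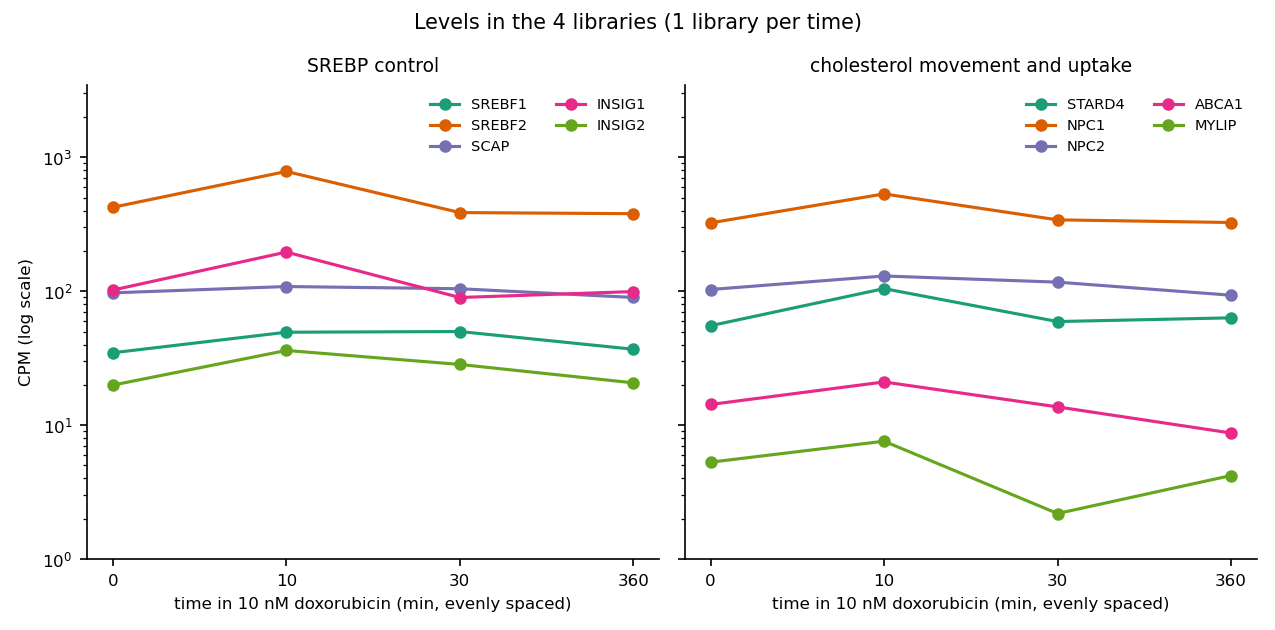
CPM (log scale) of the 5 SREBP control genes and the 5 genes of cholesterol movement and uptake in the 4 libraries, ordered by time in 10 nM doxorubicin (evenly spaced, 1 library per time). SREBF2, INSIG1, STARD4 and NPC1 are highest at 10 min, and their 30 and 360 min values lie near 0 min, and MYLIP dips at 30 min.

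Promoter windows of 5 members that stood at least 1.5-fold higher at 10 min are shown because SREBPs act at such sites together with the factor NF-Y: the sterol factor gene itself, its inhibitor INSIG1, the sterol carrier STARD4, and 1 enzyme of each branch with the highest 10 min ratio. They run from 250 bases before to 50 bases after the RefSeq transcription start (GRCh38.p14), 5′ to 3′ on the gene's strand. Capitals mark matches on either strand to the sterol regulatory element TCACCCCAC, the NF-Y box CCAAT and the E-box CACGTG, and these 3 motifs do not overlap in the windows shown.
SREBF2 promoter window (chr22:41832855-41833154, plus strand): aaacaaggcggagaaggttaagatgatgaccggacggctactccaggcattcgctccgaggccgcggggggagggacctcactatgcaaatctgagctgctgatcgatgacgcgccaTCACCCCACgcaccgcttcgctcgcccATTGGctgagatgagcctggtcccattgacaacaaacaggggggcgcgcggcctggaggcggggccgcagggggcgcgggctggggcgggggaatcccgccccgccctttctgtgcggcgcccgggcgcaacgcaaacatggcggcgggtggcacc
INSIG1 promoter window (chr7:155297628-155297927, plus strand): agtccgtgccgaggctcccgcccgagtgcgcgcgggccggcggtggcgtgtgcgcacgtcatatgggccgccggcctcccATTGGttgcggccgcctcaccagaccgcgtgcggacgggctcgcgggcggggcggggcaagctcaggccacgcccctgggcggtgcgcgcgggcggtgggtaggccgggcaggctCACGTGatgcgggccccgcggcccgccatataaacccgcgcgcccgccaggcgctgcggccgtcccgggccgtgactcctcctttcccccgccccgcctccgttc
STARD4 promoter window (chr5:111512486-111512785, minus strand): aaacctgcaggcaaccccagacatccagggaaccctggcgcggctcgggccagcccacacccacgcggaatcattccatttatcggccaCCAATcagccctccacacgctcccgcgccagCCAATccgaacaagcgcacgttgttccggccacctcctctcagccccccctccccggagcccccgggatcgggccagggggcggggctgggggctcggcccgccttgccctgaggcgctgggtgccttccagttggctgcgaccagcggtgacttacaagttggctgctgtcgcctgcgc
SCD promoter window (chr10:100346983-100347282, plus strand): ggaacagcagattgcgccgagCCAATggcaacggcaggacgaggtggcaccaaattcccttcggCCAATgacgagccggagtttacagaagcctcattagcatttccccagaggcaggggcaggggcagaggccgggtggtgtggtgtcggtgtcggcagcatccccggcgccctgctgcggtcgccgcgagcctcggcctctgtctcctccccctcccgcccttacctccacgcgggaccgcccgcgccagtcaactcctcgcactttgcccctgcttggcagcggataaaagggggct
MSMO1 promoter window (chr4:165327419-165327718, plus strand): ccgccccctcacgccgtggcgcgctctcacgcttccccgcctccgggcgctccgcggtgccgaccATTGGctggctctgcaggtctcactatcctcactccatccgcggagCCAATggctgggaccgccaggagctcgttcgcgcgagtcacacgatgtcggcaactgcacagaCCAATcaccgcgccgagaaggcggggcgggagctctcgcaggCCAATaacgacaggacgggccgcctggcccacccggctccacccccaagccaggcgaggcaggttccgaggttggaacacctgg
SREBF2 holds the sterol regulatory element from base -133 to -125 and an NF-Y box from -106 to -102. INSIG1 holds an NF-Y box and an E-box, STARD4 and SCD hold 2 NF-Y boxes each, and MSMO1 holds 4.

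RefSeq windows were found for 31 of the 35 members, all but SQLE, FDFT1, FASN and ACAT2. These 31 had 43 windows, and all 27305 genes had 35116, so genes with several windows had more bases searched. The last 20 bases of 36 of the 43 lay in the first 400 bases of an annotated transcript of the gene. The rest were not matched to a start of the transcripts counted here. SREBF2 was the only 1 of the 31 with the exact TCACCCCAC element, which 0.535% of all 27305 genes with a window hold, and a version with any base at position 5 (TCACNCCAC) added no further member. CCAAT was present in 21 of 31 (67.7%), against 39.7% of all genes with a window, and CACGTG in 5 of 31 (16.1%), against 8.78%. The wider set includes genes that were not expressed in these cells. As examples, CCAAT occurred in the windows of MVD and MSMO1, which stood above 0 min at 10 min. It also occurred in those of SC5D and FADS2, which stood below. The FADS2 match lies after the start, at bases 6 to 10. Whether a match goes with the 10 min ratio was not tested. A match describes the letters and does not show that a factor binds there. A missing match does not show that a gene lacks a sterol regulatory element, since only these letters in these windows were searched.

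**Figure D3:**
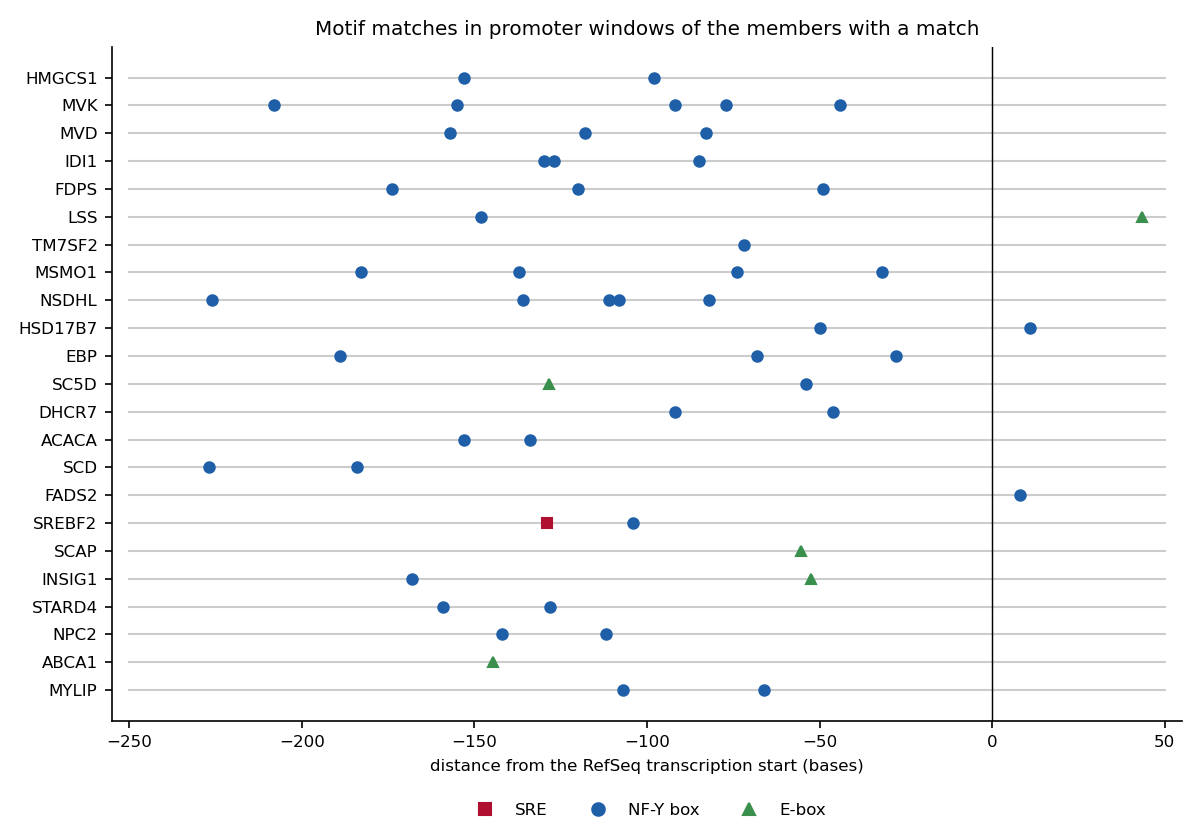
Matches to the sterol regulatory element (square), NF-Y box (circle) and E-box (triangle) by distance in bases from the RefSeq transcription start (x axis) in the 23 members with a match (rows), drawn for the window with most matches where a gene has several. SREBF2 alone carries the square, and most CCAAT matches lie before the start.

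SREBF2 and SREBF1 also host the microRNAs miR-33a and miR-33b in introns, and these are known to repress ABCA1 and NPC1, so their mature forms are shown beside the host genes. Bases 2 to 8, the seed, are in capitals.
hsa-miR-33a-5p (chr22:41900949-41900969, plus strand): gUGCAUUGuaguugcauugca
hsa-miR-33b-5p (chr17:17813897-17813916, minus strand): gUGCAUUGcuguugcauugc
Both carry the same seed, and both lie within their host gene on its strand and outside its annotated exons. The libraries measured poly(A) RNA, and mature microRNAs were not measured. Their reported targets ABCA1 and NPC1 stood at 10 min ratios of 1.47 (1.23 to 1.77) and 1.64 (1.59 to 1.71). The 10 min library held the highest value for 23 of 35 members (65.7%, against 34.1% of genes with at least 5 CPM). A link to miR-33 was not tested.

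The 5 genes of cholesterol movement and uptake all had intervals above 1 at 10 min, where 34.2% of genes with at least 5 CPM did. Their median ratio was 1.47. STARD4 (ENSG00000164211, chromosome 5, 111496033 to 111512590), a sterol carrier that moves cholesterol between membranes, had 55.3, 105, 59.4 and 63.3 CPM at 0, 10, 30 and 360 min and a 10 min ratio of 1.89 (1.74 to 2.07). NPC1 (ENSG00000141458, chromosome 18, 23506184 to 23586898), the lysosomal membrane protein that exports cholesterol, had 324, 533, 341 and 326 CPM at 0, 10, 30 and 360 min, while its soluble partner NPC2 had 103, 130.1, 117 and 93.4 CPM at 0, 10, 30 and 360 min. Both were highest at 10 min, NPC1 at a ratio of 1.64 (1.59 to 1.71) and NPC2 at 1.26 (1.18 to 1.35). At 30 min NPC2 was the highest of the group, at 1.13 (1.06 to 1.22), and at 360 min STARD4, at 1.14 (1.04 to 1.26). ABCA1 (ENSG00000165029, chromosome 9, 104781002 to 104928237), which exports cholesterol to apolipoproteins and is induced by the sterol-sensing LXR receptors, had 14.3, 21.0, 13.7 and 8.74 CPM at 0, 10, 30 and 360 min. It was the lowest of this group at 360 min, with a ratio to 0 min of 0.612 (0.482 to 0.768) that stayed short of the 2-fold limit.

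MYLIP (ENSG00000007944, chromosome 6, 16129125 to 16148248), an LXR-induced ubiquitin ligase, had 5.29, 7.59, 2.19 and 4.21 CPM at 0, 10, 30 and 360 min. It was the one member called against 0 min, lower at 30 min with a ratio of 0.414 (0.260 to 0.636), and it rests on low counts. Its ratios were 1.43 (1.07 to 1.97) at 10 min and 0.795 (0.556 to 1.14) at 360 min. Of its 2 main transcripts, MYLIP-202 had 2.29, 3.33, 2.19 and 2.30 CPM at 0, 10, 30 and 360 min. MYLIP-201 had 3.007, 4.26, 0 and 1.90 CPM at these times, so the 30 min difference lies in a transcript listed at 0 in that library.

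In the sterol branch, the first enzymes ran close to 0 min at 10 min and MVD, FDFT1 and MSMO1 stood higher, at ratios from 1.49 to 1.64. ACAT2, which joins the first acetyl units, had 201, 195.3, 211 and 224 CPM at 0, 10, 30 and 360 min, and its 10 min ratio was 0.974 (0.923 to 1.03). HMGCS1, which makes HMG-CoA, had 169.6, 194.7, 199 and 213 CPM at 0, 10, 30 and 360 min, with a ratio of 1.15 (1.09 to 1.21) at 10 min and 1.26 (1.19 to 1.33) at 360 min. Its annotated transcripts had the highest 30 min ratio of the branch, but the assembled models at its locus, which held more counts than the annotated ones at 0 min, were low at 30 min. With them the locus had 433, 499.9, 365 and 474 CPM at 0, 10, 30 and 360 min, and the 30 min ratio turned from 1.17 (1.11 to 1.24) to 0.843 (0.812 to 0.875).

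The mevalonate kinases and decarboxylase differed from each other at 10 min. MVK had 40.9, 42.8, 40.5 and 46.1 CPM at 0, 10, 30 and 360 min and was near 0 min at 10 min, at a ratio of 1.05 (0.933 to 1.18). PMVK, the next kinase, had 34.4, 22.3, 36.0 and 31.1 CPM at 0, 10, 30 and 360 min and was the lowest sterol enzyme at 10 min, at a ratio of 0.649 (0.561 to 0.749). MVD, which decarboxylates the product to isopentenyl diphosphate, had 75.8, 120.1, 69.0 and 76.8 CPM at 0, 10, 30 and 360 min and stood at a ratio of 1.58 (1.47 to 1.71). In MVD the most counted transcript in every library, MVD-209, is annotated as a retained intron. IDI1, the isomerase that follows, was at 1.16 (1.08 to 1.23) at 10 min and 0.817 (0.762 to 0.876) at 30 min, and FDPS, farnesyl diphosphate synthase, was at 1.14 (1.07 to 1.22) and 1.06 (0.995 to 1.13).

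From squalene onward, FDFT1, squalene synthase, had 154, 229.7, 162 and 171 CPM at 0, 10, 30 and 360 min and a 10 min ratio of 1.49 (1.41 to 1.58). Its leading transcript FDFT1-201 had 109, 114, 103 and 125 CPM in the 4 libraries, and a 2462-base coding transcript (ENST00000615631) held 45.6 CPM at 10 min and was listed at 0 at the other times. Most of the 10 min excess of FDFT1 lay in that transcript. SQLE, squalene epoxidase and a rate-limiting step after the mevalonate steps, had 164, 187, 145 and 175 CPM at 0, 10, 30 and 360 min, and its ratios ran only from 0.882 at 30 min to 1.13 at 10 min. CYP51A1, which removes a methyl group from lanosterol, was similarly flat, with 237, 259, 207 and 239 CPM at 0, 10, 30 and 360 min.

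MSMO1 (ENSG00000052802, chromosome 4, 165327623 to 165343160), the next demethylating oxidase, had 242, 397, 216 and 247 CPM at 0, 10, 30 and 360 min and the highest 10 min ratio of the sterol enzymes, 1.64 (1.57 to 1.71). The other 3 libraries lay within 216 to 247 CPM. Its partners in the removal of the methyl groups did not share that size, NSDHL being at 0.910 (0.816 to 1.01) and HSD17B7 at 1.28 (1.08 to 1.52) at 10 min. Named pseudogenes of HSD17B7 held up to 3.22 CPM in all, against 15.9 to 21.7 CPM for the gene, so its value is less certain. TM7SF2, a sterol reductase, had the fewest counts of the branch, with 4.27, 6.28, 4.21 and 3.44 CPM at 0, 10, 30 and 360 min, and its 10 min ratio of 1.47 (1.04 to 2.06) had a wide interval.

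LSS, which closes squalene epoxide into lanosterol, had the highest 360 min ratio of all members, 1.85 (1.66 to 2.06), with 35.9, 33.9, 36.3 and 66.2 CPM at 0, 10, 30 and 360 min. This rests on how counts were divided at the locus (ENSG00000160285, chromosome 21, 46188141 to 46228824). Its assembled models had 96.9, 135, 110.0 and 68.1 CPM at 0, 10, 30 and 360 min, and the locus as a whole had 133, 169, 146 and 134 CPM at 0, 10, 30 and 360 min. For the whole locus the 360 min ratio was 1.01 (0.948 to 1.08), and the 10 min ratio was 1.27 (1.20 to 1.35). The most counted annotated transcript in every library, LSS-208, is annotated as a retained intron.

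The last steps to cholesterol ran level or lower. SC5D (ENSG00000109929, chromosome 11, 121292453 to 121308694), a sterol desaturase, had 50.2, 37.5, 31.3 and 35.6 CPM at 0, 10, 30 and 360 min, and all 3 treated libraries lay below 0 min, at ratios of 0.747 (0.665 to 0.837), 0.623 (0.551 to 0.703) and 0.709 (0.631 to 0.797). It was the lowest sterol enzyme at 30 min. EBP, the isomerase that shifts the ring double bond, had 44.6, 47.4, 44.9 and 30.2 CPM at 0, 10, 30 and 360 min, with 360 min alone low, at a ratio of 0.678 (0.598 to 0.769) that was the lowest of the branch at that time. DHCR7, the reductase of the final step, had 143, 137, 124 and 129 CPM at 0, 10, 30 and 360 min and ratios from 0.870 to 0.956.

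**Figure D4:**
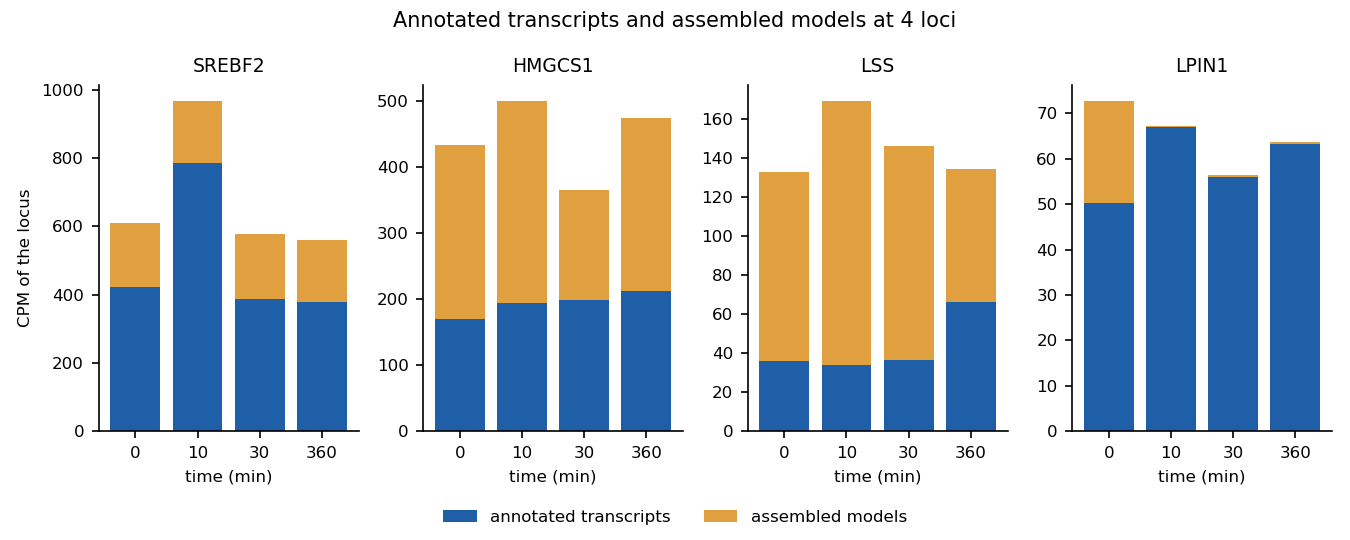
CPM of annotated transcripts and of assembled models stacked for the loci of SREBF2, HMGCS1, LSS and LPIN1 in the libraries of 0, 10, 30 and 360 min (1 library per time). The whole LSS locus at 360 min (134 CPM) is close to 0 min (133 CPM) although its annotated part is larger, and LPIN1 holds assembled models almost only at 0 min.

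In the fatty acid branch the synthase, carboxylase and stearoyl desaturase stood above 0 min at 10 min and the other 3 enzymes did not. SCD (ENSG00000099194, chromosome 10, 100347124 to 100364834), the desaturase that makes oleate, had 730.4, 1231, 702 and 716 CPM at 0, 10, 30 and 360 min, and the 10 min library again stood alone, at a ratio of 1.68 (1.64 to 1.73). FASN (ENSG00000169710, chromosome 17, 82078333 to 82098332), the synthase, had 530.4, 731, 421 and 476 CPM at 0, 10, 30 and 360 min, with a ratio of 1.38 (1.34 to 1.42) at 10 min and 0.794 (0.767 to 0.822) at 30 min, so that it was high at the first time and low at the second. ACACA, which makes malonyl-CoA, had 141, 179, 119 and 117 CPM at 0, 10, 30 and 360 min, with ratios of 1.27 (1.20 to 1.35), 0.848 (0.794 to 0.905) and 0.835 (0.781 to 0.892). It was the lowest enzyme of the branch at 360 min, although no treated library differed from 0 min by 1.5-fold.

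The elongase and the polyunsaturated fatty acid desaturases of this branch lay near or below 0 min at 10 min. ELOVL6, which lengthens palmitate, had 45.0, 42.8, 40.3 and 48.9 CPM at 0, 10, 30 and 360 min and a 10 min ratio of 0.950 (0.848 to 1.06). Its most counted transcript was ELOVL6-202 at 0 and 30 min and ELOVL6-201 at 10 and 360 min, both coding. FADS1 had 183, 187, 194.9 and 206 CPM at 0, 10, 30 and 360 min and was at 1.02 (0.966 to 1.08) at 10 min. It was the highest of the branch at 30 and 360 min, at 1.06 (1.01 to 1.12) and 1.13 (1.07 to 1.19). FADS2, its neighbour on chromosome 11 and the desaturase that acts before it on polyunsaturated fatty acids, had 29.6, 19.5, 27.6 and 29.9 CPM at 0, 10, 30 and 360 min and was the lowest of the branch at 10 min, at 0.659 (0.563 to 0.769). The transcript mix of ACACA differed between libraries: ACACA-237 held 79.5% of its counts at 0 min, ACACA-231 held 92.9% at 30 min and ACACA-226 held 91.5% at 360 min, with the gene's sum much steadier than any of them.

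LPIN1, a phosphatidate phosphatase of triglyceride synthesis and an SREBP target, had 50.3, 67.1, 56.1 and 63.4 CPM at 0, 10, 30 and 360 min in annotated transcripts and ratios of 1.33 (1.21 to 1.47), 1.11 (1.00 to 1.23) and 1.26 (1.14 to 1.39). The assembled models at its locus had 22.4, 0.234, 0.344 and 0.272 CPM at 0, 10, 30 and 360 min. Counted as a whole locus the ratios turned to 0.925 (0.847 to 1.01), 0.776 (0.706 to 0.853) and 0.875 (0.799 to 0.959), so no direction holds for this gene. SREBF2 kept its direction with its assembled models added, at a 10 min ratio of 1.58 (1.54 to 1.63) for the whole locus, and its assembled models stayed between 182 and 191 CPM in the 4 libraries.

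Set side by side in annotated transcripts, the sterol and fatty acid enzymes differed in their median log2 ratio by at most 0.12 at any of the 3 times. At 10 min the median log2 ratio was 0.16 over 18 sterol enzymes and 0.19 over 6 fatty acid enzymes, where all measured genes had 0.02. At 30 min the medians were -0.02 and -0.13, against -0.01 for all genes, and at 360 min 0.10 and -0.01, against 0.00 for all genes. The sterol median minus the fatty acid median was -0.03, 0.12 and 0.11 at 10, 30 and 360 min. For whole loci the 10 min medians lay further apart, at 0.195 over 16 sterol enzymes and 0.415 over 4 fatty acid enzymes. The whole-locus fatty acid median leaves out FADS1 and FADS2, which have no matched locus. The SREBP control genes lay higher than either branch at 10 min, with a median log2 ratio of 0.86. Of the 18 sterol enzymes 10 had an interval above 1 at 10 min (55.6%) and 2 below it (11.1%). Of the 6 fatty acid enzymes 3 lay above (50%) and 1 below (16.7%). Of all genes with at least 5 CPM, 34.2% lay above and 39.0% below. No branch difference was tested, since the enzymes are not replicates and there is 1 library per time.

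**Figure D5:**
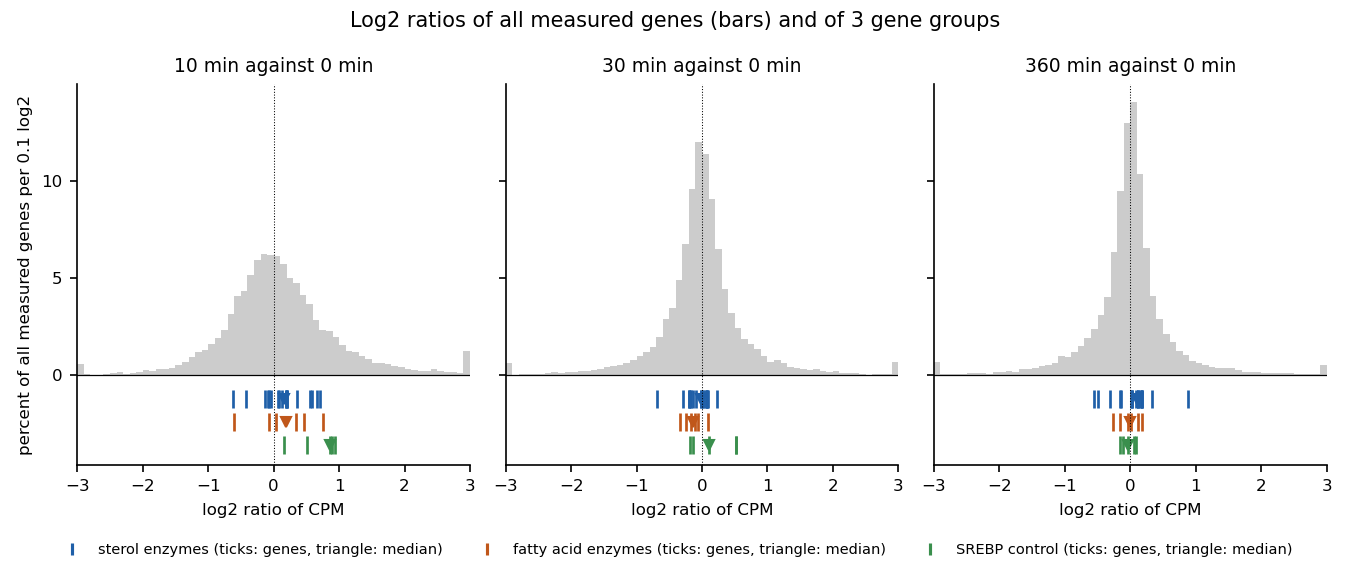
Distribution of the log2 CPM ratio to 0 min over all 15989 measured genes (grey bars, percent per 0.1, values past 3 in the end bins), with the sterol enzymes, fatty acid enzymes and SREBP control genes as ticks and their medians as triangles. At 10 min the branch medians are 0.16 for sterol and 0.19 for fatty acid enzymes, the SREBP control median is 0.86 and the median of all genes is 0.02.

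Between the treated libraries, 360 min against 10 min again set the 10 min library apart. There 2 of 35 members were called lower, where 9.13% of genes were: SREBF2 at a ratio of 0.484 (0.468 to 0.4998) and ABCA1 at 0.416 (0.332 to 0.514). None was called higher, where 7.99% of genes were. INSIG1 missed the limit at 0.507 (0.475 to 0.541). SREBF2 was no longer called for its whole locus, at 0.581 (0.565 to 0.597), while ABCA1 has no assembled models. With the 1.5-fold limit 14 of 35 members were lower (40%, against 18.7% of genes) and 2, LSS and FADS2, were higher (against 19.1% of genes). LSS reverses for its whole locus, at 0.794 (0.746 to 0.844), against 1.95 (1.75 to 2.19) in annotated transcripts, and FADS2 has no matched locus. These comparisons share the 10 min library with those above. For 360 min against 30 min no member was called, where 3.26% of genes were called higher and 3.49% lower. At 1.5-fold LSS was higher, where 7.59% of genes were, and ABCA1 lower, where 7.95% were. LSS again reverses for its whole locus, at 0.918 (0.861 to 0.978), against 1.82 (1.63 to 2.04) in annotated transcripts.

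Divided by transcript length, the level of the members spanned a wide range. At 0 min SCD had 136 and MSMO1 130.1 CPM per kilobase, the highest of the 35, and FDPS and NPC2 followed with 114 and 111. SREBF2 stood at 82.7 CPM per kilobase and SREBF1 at 11.6. INSIG1 stood at 46.4 and INSIG2 at 8.21, and at 10 min these were 87.2 and 15.2. The form tied to sterol genes was thus the more abundant of the SREBP pair, as INSIG1 was of the INSIG pair, in each library. ABCA1 was lowest, at 1.48 CPM per kilobase.

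Further genes of these pathways, outside the 35, were read with the same rule. Of 14 measured further sterol genes none was called at 30 or 360 min, where 3.25% to 3.55% of all genes were in each direction. None of the 14 was called higher at 10 min, where 7.69% of all genes were. Of 23 measured further fatty acid and glycerolipid genes, 21 with enough counts, 1 was called higher and 1 lower at 10 min, where 7.69% and 6.85% of all genes were, 1 lower at 30 min, where 3.25% were, and 1 lower at 360 min, where 3.34% were. ACSS2 (ENSG00000131069, chromosome 20, 34872146 to 34927962), which makes acetyl-CoA from acetate and is an SREBP target, had 40.2, 93.7, 46.0 and 36.7 CPM at 0, 10, 30 and 360 min and was the 1 higher, at 2.33 (2.11 to 2.58). Its locus held no assembled models, and its most counted transcript differed between the libraries.

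The 3 lower calls in that list did not hold for whole loci. ACSL3, an acyl-CoA synthetase, was at 0.496 (0.462 to 0.532) at 10 min in annotated transcripts and at 0.941 (0.888 to 0.997) for its locus. ACLY, which makes acetyl-CoA from citrate for both branches, was at 0.452 (0.433 to 0.471) at 30 min in annotated transcripts and at 0.977 (0.945 to 1.01) for its locus. ACACB, the mitochondrial form of acetyl-CoA carboxylase, was at 0.142 (0.0939 to 0.209) at 360 min and at 0.772 (0.628 to 0.953) for its locus. The median log2 ratio of these lists at 10 min was -0.01 for the further sterol genes and 0.07 for the further fatty acid genes, beside 0.02 for all genes.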

How the data were processed

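Poly(A) RNA of AC16 cells was sequenced, with 1 library per time. The authors deposited estimated counts per transcript and per locus, neither scaled nor divided by length. GRCh38, HISAT2 and DESeq2 are listed in the submitters' processing notes, without versions. No source used here names the tool that counted transcripts or says whether it used strand. Of the annotated transcripts in the table, 197268 of 215876 were found in GENCODE 29. Their counts were summed per gene and scaled to CPM by column totals, which leaves out assembled models (10.7% to 11.7% of counts). Whole loci were matched by equal counts for 30 of 35 members.

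A read pair was taken as 4 deposited counts, the cautious choice, which gives 13789153 to 14218970 read pairs per library. The low values do not settle this: 26.1% of 24294 values from 1 to 24 were multiples of 4, where even spacing gives 25%. Intervals are exact (Clopper-Pearson, conditional binomial, SciPy 1.17.1). A library at 0 entered the ratio at a floor of 3 read pairs, while its interval was computed from the count of 0. No model was fitted and no significance test was made, as 1 library per time leaves no residual degrees of freedom. Scaling factors came from edgeR 4.0.16 and DESeq2 1.42.0 in R 4.3.3. Other work used Python 3.11.15, numpy 2.4.6 and pandas 2.3.3. The calling rule was run on simulated libraries that held counting noise only, in the same unit of 4 deposited counts. Such libraries cannot show how the rule does under variation between cultures or in the sharing of counts among transcripts.

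The members and gene lists were chosen with earlier results of these data known. The genes named are the members past the 2-fold rule against 0 min, the 5 SREBP control genes, and the highest and lowest of each role group at each time. Members past 1.5-fold at 10 min (which adds MVD and NPC1) were followed through the alternatives too. The other members are named to complete the pathway and were chosen with their values seen. Of the further lists, genes past the rule are named, except that the lower calls among the further sterol genes at 10 min are not reported here. ACAT2, HMGCS1, IDI1, FDPS and CYP51A1 share 10% or more of their exon bases with another gene. The gene that each overlaps most had at most 1.82 CPM at 0 and 10 min, and the later times were not read. ACAT2 and CYP51A1 each overlap 3 genes, and the levels of the others were not read. Promoter and microRNA sequences are from RefSeq (GRCh38.p14).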

Additional observations from a re-analysis of the deposited data

Results flagged for a closer look

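Assembled transcript models were not part of the gene values above, and at 2 member loci they stood at least 2-fold above the 0 min library with 5 CPM or more. At the DHCR7 locus they held 14.7 CPM at 10 min and were listed at 0 at 0 min. Against a floor of 3 read pairs the ratio was 69.8. The lower interval bound of 56.3 was computed from the count of 0, without the floor. At the FASN locus they held 48.2 CPM at 360 min, against 23.2 CPM at 0 min, a ratio of 2.08 (1.82 to 2.37). Neither changes a call for the gene: the whole DHCR7 locus had a 10 min ratio of 1.06 (0.996 to 1.13) and the whole FASN locus a 360 min ratio of 0.947 (0.917 to 0.978).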

How the results depend on the processing

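TMM and median-of-ratios scaling, a filter of 5 CPM or none, undivided counts and whole loci left the numbers of called members against 0 min as reported. Under a 1.5-fold limit, members higher and lower numbered 8 and 2 at 10 min, 0 and 2 at 30 min, and 1 and 1 at 360 min. The same limit gave 2 and 14 for 360 min against 10 min, and 1 and 1 for 360 min against 30 min. For 360 min against 10 min, an alternative chosen after seeing the data, TMM gave 1 member higher (LSS) and whole loci 1 lower. The fatty acid median at 10 min was 0.42 for whole loci, which cover 4 of its 6 enzymes, and 0.35 with LPIN1 added. The sterol median for whole loci at 10 min was 0.195. Against the mean of the other 3 libraries, which takes in the high 10 min library, the 30 min medians were -0.17 for sterol and -0.23 for fatty acid enzymes. Of the 69 log2 ratios of 23 members (those named by rule, with MVD and NPC1), TMM moved 1 by more than its counting half-interval (SCD at 10 min, 0.71), and whole loci moved 10 of 60, at LSS, SREBF2, LPIN1, HMGCS1 and FASN. Every other alternative run left the branch medians within the counting half-interval of a typical enzyme. No library could be left out, as each time has 1. No paired analysis was possible because each group has 1 library. Depth limits MYLIP and TM7SF2 most, and no setting covers variation between cultures.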
